A study of Mus musculus with 14 samples.

Results

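The response of the wild-type mouse heart to pressure overload was examined by comparing hearts after TAC with hearts after sham surgery. All samples labelled with the wild-type genotype entered, 6 of the 14 in the series, of which 4 were sham and 2 were TAC. The other 8 came from hearts labelled as knockouts of Clk3, a kinase of the CDC-like family that acts on splicing factors, and served to set the spread between replicates and as a separate comparison. Mice were of the C57BL/6J strain. Sham samples 1 and 2 came from mice of 11 weeks, and sham samples 3 and 4 and both TAC samples from mice of 10 weeks. The labels give no duration of TAC, sex or time of collection. They do not say that each sample was a separate animal, so p-values measure a spread between samples that may be technical in part.

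TAC is taken here as transverse aortic constriction, an operation that narrows the aortic arch so that the left ventricle must pump against a higher pressure. Cardiac myocytes cannot divide to any large extent and respond by growing, while fibroblasts multiply and lay down matrix. The loaded heart is also known for a turn away from fat as its main fuel and for slower electrical repolarisation. In whole tissue, fewer cells of a type and less RNA per cell cannot be told apart.

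Gene counts were 12836936 to 20369637 per library in sham and 13287464 and 13441034 in TAC. 1 library went against its genotype label. The library labelled TAC 1 had 54.2 CPM (counts scaled to library size, with TMM factors) of Clk3, where the remaining 5 wild-type libraries had 73.2 to 96.0 CPM and the 8 knockouts 50.8 to 67.4 CPM. The processed pseudogene Gm8730 stood at 66.8 CPM in it, compared with 1.26 to 1.63 CPM in those 5 and 57.4 to 67.1 CPM in the knockouts, and the pseudogene Gm9625 at 20.3 CPM, against 0.485 to 1.09 and 16.1 to 21.0 CPM. In load it followed its label, with Nppa, the atrial natriuretic peptide gene, at 1912 CPM, against 1808 CPM in TAC 2 and 103.8 to 217 CPM in sham. Its share of reads outside annotated features was the lowest of the 6, at 10.7%, against 14.9% in TAC 2 and 14.3% to 17.6% in sham. The nuclear noncoding RNAs Malat1 and Neat1 were lowest of the 6 there too. In the knockouts Malat1 was at 5503 to 6306 CPM in sham and 3452 to 5304 CPM after TAC. Neat1 was at 986.9 to 1397 CPM and 689.9 to 942.4 CPM. In the library labelled TAC 1, Malat1 stood at 3352 CPM, against 5609 CPM in TAC 2 and 4337 to 6050 CPM in wild-type sham. Neat1 stood at 680.5 CPM in it, against 1641 CPM and 1177 to 1776 CPM. Whether these features bear on the results was not tested. Counts over all genes and for most pathway lists are therefore given with and without this library. Wherever 2 TAC values follow each other, the first is that of the library labelled TAC 1.

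Of 15651 genes tested, 1912 (12.2%) passed an adjusted p of 0.05 in the edgeR quasi-likelihood test. Higher levels after TAC were called in 1082 genes (6.91%) and lower levels in 830 (5.3%), and 374 and 205 of them differed at least 2-fold. The TAC libraries were taken to agree on a gene where both lay above, or both below, all 4 sham libraries, which held for 4797 of all tested genes (30.6%). They agreed in 1059 of the genes called higher and 826 of those called lower, a count given only as a description, since the calls rest on the same values. Of the exceptions, 17 higher and 4 lower genes lay outside the sham range in the library labelled TAC 1 alone, and 6 higher genes in TAC 2 alone.

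The size of the response was less even than its direction. The library labelled TAC 1 was farther from the sham mean than TAC 2 in 822 of the higher genes (76.0%) and 583 of the lower genes (70.2%). The median log2 difference was 0.76 in it and 0.57 in TAC 2 for the higher genes, and -0.72 and -0.56 for the lower genes. With TAC 2 alone as the TAC group, 512 genes were called (3.16%), 321 higher and 191 lower. With the library labelled TAC 1 alone, 2224 were called (13.7%), 1193 higher and 1031 lower. In both of these fits the single library is assumed to vary like the other groups. A call held in the same direction with either TAC library alone in 407 genes (2.6%), 263 higher and 144 lower. Such calls are said to hold with either library, and where a named gene is not among them the adjusted p with 1 TAC library is given.

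Beyond the natriuretic peptides and fibrillar collagens, the largest rises comprised matrix proteins of tendon and cartilage, a stress hormone, a hormone-activating enzyme and a proton pump subunit. Gdf15, a circulating stress hormone of the TGF-beta family, was at 1.56, 0.748, 1.48 and 0.863 CPM in the 4 sham libraries and 15.5 and 17.7 CPM after TAC (log2 difference 3.87 ± 0.35 SE, adjusted p = 5.38e-06). Both TAC values lay far above every sham value and were close to each other. Dio2 (ENSMUSG00000007682.6, GRCm38 chromosome 12, 90724552 to 90738438), the deiodinase that turns thyroxine into active thyroid hormone inside cells, rose from 3.83, 1.59, 3.17 and 2.696 CPM to 45.8 and 19.5 CPM (log2 difference 3.56 ± 0.32 SE, adjusted p = 5.81e-06). The TAC values of Dio2 were both high but more than 2-fold apart, with TAC 2 the lower.

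Lrp8 was at 1.09, 0.561, 0.657 and 0.701 CPM in sham and 10.2 and 6.37 CPM after TAC (log2 difference 3.49 ± 0.32 SE, adjusted p = 7.23e-06); its product is a receptor for reelin and apolipoprotein E. Atp6v0a4, a subunit of the vacuolar proton pump best known from the kidney, was at 0.859, 0.561, 1.04 and 1.02 CPM and 11.7 and 4.67 CPM (log2 difference 3.23 ± 0.34 SE, adjusted p = 3.05e-05). Lman1l, related to a cargo receptor between the endoplasmic reticulum and the Golgi, was at 1.09, 0.654, 1.04 and 1.19 and 10.9 and 4.89 CPM (log2 difference 2.996 ± 0.38 SE, adjusted p = 0.000146). In each of these genes the sham libraries stayed near 1 CPM, and the library labelled TAC 1 was higher than TAC 2. All 14 of the largest rises held with either library.

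Among the matrix proteins, the libraries split in the other direction for some. Comp, a pentameric cartilage glycoprotein, was at 10.5, 1.03, 4.05 and 1.78 CPM in sham and 38.8 and 95.9 CPM after TAC (log2 difference 4.07 ± 0.66 SE, adjusted p = 0.00095). Fmod, a collagen-binding proteoglycan, was at 5.62, 0.234, 0.766 and 0.485 and 24.8 and 46.6 CPM (log2 difference 4.53 ± 0.77 SE, adjusted p = 0.00121), and Col8a2, a short-chain collagen, at 1.95, 0.608, 0.657 and 0.701 and 10.7 and 22.1 CPM (log2 difference 4.15 ± 0.49 SE, adjusted p = 7.18e-05). In all of them sham 1 was the highest sham library and TAC 2 exceeded the library labelled TAC 1. Col12a1, a collagen that sits on the surface of fibrils, showed the reverse order after TAC, at 3.36, 1.64, 1.48 and 2.103 CPM in sham and 29.2 and 19.9 CPM after TAC (log2 difference 3.55 ± 0.30 SE, adjusted p = 3.56e-06).

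Enzymes of sugar handling were among the largest falls. Pfkfb1, which sets the level of a fructose phosphate that activates glycolysis, was at 29.5, 23.5, 22 and 22.4 CPM in sham and 3.38 and 4.59 CPM after TAC (log2 difference -2.602 ± 0.42 SE, adjusted p = 0.000881), and Phkg1, the catalytic subunit of glycogen phosphorylase kinase in muscle, at 66.6, 53.4, 50.7 and 62.3 and 7.44 and 21.6 CPM (log2 difference -1.996 ± 0.32 SE, adjusted p = 0.000856). No TAC value of these enzymes reached the lowest sham value, and Phkg1 fell further in the library labelled TAC 1.

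Membrane and cell contact genes followed. Clcn1, the chloride channel of skeletal muscle, was at 23.5, 27.02, 18.9 and 24.2 CPM in sham and 2.38 and 6.82 CPM after TAC (log2 difference -2.34 ± 0.35 SE, adjusted p = 0.000542). Kcnv2, a modifier subunit of voltage-gated potassium channels, was at 21.6, 20.9, 19.6 and 19.4 and 3.68 and 5.71 CPM (log2 difference -2.11 ± 0.28 SE, adjusted p = 0.000175), with sham values that hardly varied. Ppl, a plakin of desmosomes, was at 19.2, 19.9, 17.2 and 20 and 2.69 and 5.33 CPM (log2 difference -2.24 ± 0.37 SE, adjusted p = 0.001). Ccl11, the eosinophil chemokine eotaxin, was at 9.45, 6.12, 9.96 and 7.28 and 0.46 and 1.41 CPM (log2 difference -3.11 ± 0.43 SE, adjusted p = 0.000259), Sbk2, a kinase with an SH3-binding domain, at 5.54, 4.67, 8.43 and 6.25 and 0.537 and 1.11 CPM (log2 difference -2.898 ± 0.49 SE, adjusted p = 0.00123), and Efemp1, a fibulin, at 12.8, 17.9, 11.1 and 8.73 and 1.46 and 4.67 CPM (log2 difference -2.04 ± 0.36 SE, adjusted p = 0.00169). These genes, the enzymes above and Acot1, an acyl-CoA thioesterase whose near-identical relatives could share its reads (log2 difference -2.098), held with either library.

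The remaining 4 of the 14 largest falls varied widely among the sham hearts. The water channel gene Aqp4 was at 13.3, 3.27, 9.79 and 4.31 CPM in sham and 1.07 and 0.519 CPM after TAC (log2 difference -3.23 ± 0.92 SE, adjusted p = 0.0311). Its adjusted p was 0.166 without the library labelled TAC 1, 0.142 without TAC 2, 0.0563 without sham 1 and 0.0572 without sham 3. Cenpf, which encodes a kinetochore protein, was at 138, 66.4, 95.1 and 31.1 and 19.2 and 17.3 CPM (log2 difference -2.17 ± 0.45 SE, adjusted p = 0.00528; adjusted p = 0.0698 without the library labelled TAC 1). Ubxn10 and Acsm5 had log2 differences of -2.19 and -2.14 and adjusted p of 0.138 and 0.159 without that library, and Ubxn10 of 0.104 without TAC 2. Sham 1 and sham 3 were the 2 highest sham libraries in all 4 genes.

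**Figure D1:**
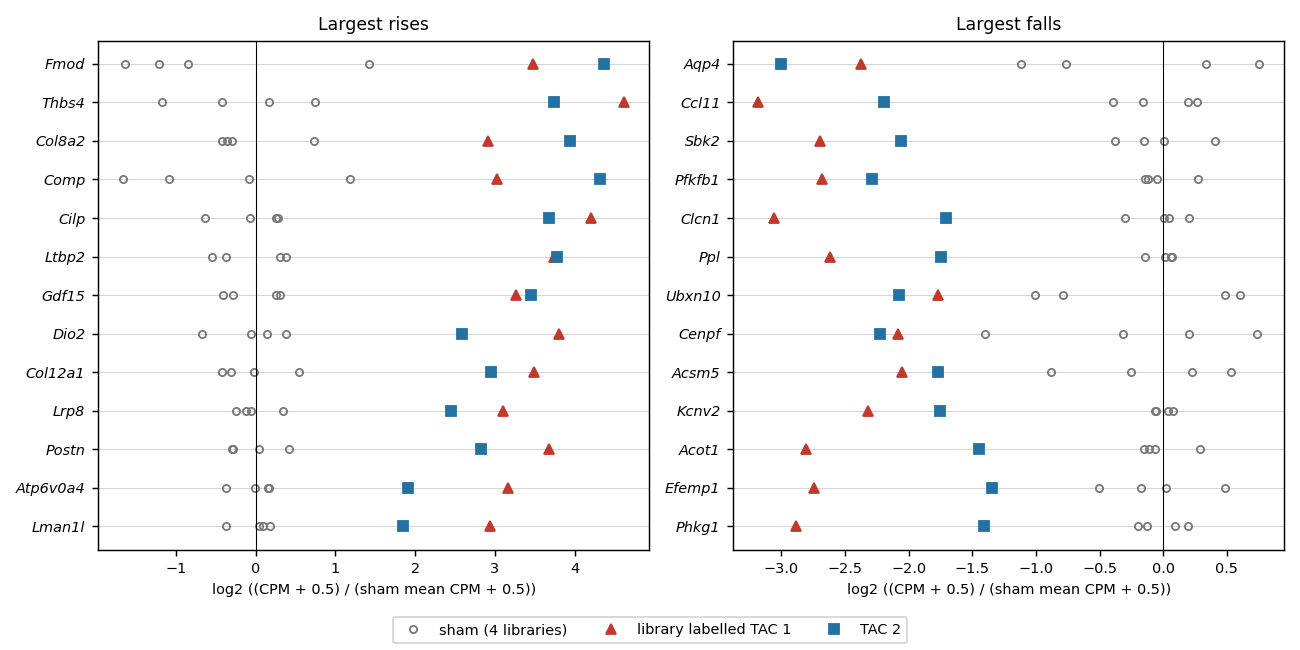
Largest rises (left) and falls (right) after TAC in wild-type hearts, 13 of each. Each row is a gene, and the x axis gives each library's CPM against the sham mean on a log2 scale with 0.5 CPM added. Circles are the 4 sham libraries, the triangle is the library labelled TAC 1 and the square TAC 2. In every row both TAC libraries lie outside the sham circles on the same side, which the rule that chose these genes required.

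Gene lists were drawn up for pathways beyond the load markers and are described by how many members were called, read against 6.91% higher and 5.3% lower over all tested genes. Those shares come from the fit with both TAC libraries. Counts with a single TAC library are not to be read against them. Calls over all genes also changed in those fits, as given above. A changed count therefore need not be particular to its list. The median log2 difference of all tested genes was -0.0023. In the lists named below, both TAC libraries lay outside the sham range on the same side for every called gene except Itgb1, Thbs3, Angptl7, Gdf6, Adcy6 and Bdh1. Members of a list outside the rule for naming genes are marked as chosen after their values were seen, and these exceptions are among them apart from Gdf6.

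Of 32 collagen modifying and crosslinking enzymes tested, 13 rose, 1 fell and 18 did not pass (median log2 difference 0.35). With TAC 2 as the only TAC library, 10 were called, all higher, and without TAC 2, 13, all higher. Lox, the enzyme that starts crosslinks between collagen chains, was at 8.43, 8.18, 9.03 and 11.1 CPM in sham and 51.7 and 37.4 CPM after TAC (log2 difference 2.28 ± 0.19 SE, adjusted p = 3.86e-06). Its relative Loxl3 was at 9.603, 9.11, 9.69 and 9.11 and 23.4 and 35.9 CPM (log2 difference 1.66 ± 0.15 SE, adjusted p = 5.87e-06), and Adamts2, which trims the amino end of procollagen, at 26.7, 31.6, 34.97 and 40.5 and 87.4 and 76.5 CPM (log2 difference 1.29 ± 0.14 SE, adjusted p = 3.51e-05). Both TAC libraries lay well apart from sham in these 3 genes, and for Loxl3 TAC 2 was the higher. Loxl1, which acts on elastin, rose by 1.22 ± 0.16 (log2, SE), Pcolce, an enhancer of the protease that trims the carboxyl end of procollagen, by 0.84 ± 0.11, and the proline hydroxylase gene P3h2 by 1.02 ± 0.14. All 6 held with either library. P3h4, chosen after its values were seen as the member that fell, went from 41.3, 43.6, 43.6 and 34.9 CPM to 26.2 and 28.8 CPM (log2 difference -0.57 ± 0.16 SE, adjusted p = 0.027; adjusted p = 0.233 without the library labelled TAC 1 and 0.059 without TAC 2).

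Of 48 matrix proteases and inhibitors tested, 13 rose and 2 fell (median 0.30). On leaving out the library labelled TAC 1, the counts were 7 and 3, and without TAC 2 they were 13 and 4. Mmp2, a gelatinase, was at 71.4, 73.7, 78.9 and 80.7 CPM in sham and 188 and 182 CPM after TAC (log2 difference 1.28 ± 0.10 SE, adjusted p = 1.91e-06), while Timp1, an inhibitor of such enzymes, was at 2.498, 1.78, 2.41 and 1.94 and 17.6 and 12.6 CPM (log2 difference 2.82 ± 0.47 SE, adjusted p = 0.00105). The TAC values of Mmp2 were almost equal, and those of Timp1 were both several-fold above sham. Adamtsl2, a fibrillin-binding relative of the ADAMTS proteases that lacks protease activity, was at 12.02, 9.77, 14.8 and 24.9 and 86.8 and 68.7 CPM (log2 difference 2.34 ± 0.28 SE, adjusted p = 8.78e-05). The cathepsin gene Ctsk rose by 1.41 ± 0.17 and the metalloprotease gene Mmp23 by 1.199 ± 0.12 (log2, SE). In the opposite direction, Htra1, a serine protease, went from 97.8, 101, 106 and 90.96 CPM to 57.2 and 69.3 CPM (log2 difference -0.64 ± 0.10 SE, adjusted p = 0.000845). Adamts7, the other member called lower and chosen after its values were seen, went from 44.1, 53.4, 43.7 and 57.5 CPM to 19.1 and 25.9 CPM (log2 difference -1.15 ± 0.19 SE, adjusted p = 0.00117). All of these held with either library.

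Genes of the tendon and cartilage programme had the largest share called among the pathway lists. The lists were chosen with earlier results of these data known, so this rank is a description only. Of 40 listed, 30 were tested, of which 20 rose and 1 fell (median 1.65). When the library labelled TAC 1 was left out, 14 were called, all higher, and without TAC 2, 16 rose and 1 fell. As 10 members were too low to be tested, and some may have passed the count filter only through their TAC level, these counts are not over all members. Scx, the transcription factor that marks tendon progenitors, was at 5.39, 4.11, 5.86 and 4.75 CPM in sham and 14.4 and 10.9 CPM after TAC (log2 difference 1.34 ± 0.16 SE, adjusted p = 0.000116), and Sox9, the factor of cartilage, at 5.93, 3.69, 5.14 and 4.15 and 11.4 and 10.5 CPM (log2 difference 1.22 ± 0.20 SE, adjusted p = 0.00117). Ptn, the heparin-binding growth factor pleiotrophin, was at 6.56, 4.81, 3.78 and 3.02 and 19.4 and 19.9 CPM (log2 difference 2.13 ± 0.29 SE, adjusted p = 0.000259). Both TAC libraries were clear of sham in these genes and close to each other, and all 3 held with either library. Fibin, a secreted protein named from fin bud initiation, rose by 1.87 ± 0.26 and held as well. Angptl7 and Thbs3, chosen after their values were seen, were called but did not separate from sham. Angptl7, an angiopoietin-like protein, was at 5.699, 1.03, 1.81 and 1.78 and 5.53 and 18.7 CPM, so that the library labelled TAC 1 lay below sham 1. Thbs3, a thrombospondin, was at 10.6, 10.2, 12.4 and 14.6 and 14.1 and 23.04 CPM, again with that library inside the sham range (adjusted p = 0.371 and 0.52 without TAC 2).

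Enzymes and carriers of sugar chains in the matrix rose in 10 of 38 (median 0.19). Without the library labelled TAC 1, 2 were called, and without TAC 2, 9 rose and 1 fell. Sulf1, which trims sulphate from heparan chains, was at 36.4, 29.7, 32.1 and 28.6 CPM in sham and 63.8 and 52.01 CPM after TAC (log2 difference 0.87 ± 0.11 SE, adjusted p = 0.000134), and Chpf, a chondroitin polymerising factor, at 23.4, 26.8, 30.1 and 27.98 and 40.4 and 42.3 CPM (log2 difference 0.61 ± 0.10 SE, adjusted p = 0.00108). Both rose by a similar factor in the TAC libraries and held with either. Vcan, the large proteoglycan versican, was at 30.4, 22.4, 32.01 and 24.1 and 112 and 48.3 CPM, more than 2-fold apart after TAC (log2 difference 1.56 ± 0.27 SE, adjusted p = 0.00137; adjusted p = 0.107 without the library labelled TAC 1). Cd44, a hyaluronan receptor, rose by 0.92 ± 0.17 (adjusted p = 0.0823 without that library).

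Complement and coagulation genes rose in 12 of 37 (median 0.33). The count was 2 without the library labelled TAC 1, and 12 higher and 2 lower without TAC 2. Serpinf1, pigment epithelium-derived factor, was at 31.8, 20.1, 23.7 and 26.1 CPM in sham and 84.9 and 64.7 CPM after TAC (log2 difference 1.56 ± 0.15 SE, adjusted p = 1.23e-05), and Clu, the chaperone clusterin, at 518, 436, 502 and 618 and 770.3 and 836 CPM (log2 difference 0.63 ± 0.12 SE, adjusted p = 0.00313). Both held with either library. The complement genes C1qa and C1qb rose by 0.501 and 0.64 on the log2 scale, with adjusted p of 0.323 and 0.195 without the library labelled TAC 1. Both genes are also members of the macrophage marker list given further on.

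Of 51 genes of TGF-beta, activin and BMP signalling, 12 rose, 3 fell and 36 did not pass (median 0.10). With TAC 2 as the only TAC library, 7 were called, all higher, and without TAC 2, 11 rose and 2 fell. The ligand gene Tgfb2 was at 18.97, 12.8, 16.03 and 15.5 CPM in sham and 59.8 and 45.1 CPM after TAC (log2 difference 1.73 ± 0.14 SE, adjusted p = 2.1e-06), and Tgfb3 at 24.9, 19.9, 22.2 and 20.9 and 47.7 and 51.4 CPM (log2 difference 1.18 ± 0.13 SE, adjusted p = 4.49e-05). Both were more than 2-fold above the sham mean in both TAC libraries. Among inhibitors, Pmepa1, which holds SMAD proteins away from the receptor, was at 47.2, 37.95, 44.2 and 43.3 and 94.8 and 99.3 CPM (log2 difference 1.17 ± 0.13 SE, adjusted p = 3.16e-05), and Bambi, a decoy receptor, at 26.2, 18.5, 20.4 and 21.03 and 45.3 and 36.8 CPM (log2 difference 0.93 ± 0.14 SE, adjusted p = 0.000667). Nbl1, which binds BMP ligands, rose by 0.87 ± 0.14 (log2, SE). Fstl1, a secreted follistatin-like protein, was at 174, 143, 173 and 156 and 545 and 351 CPM (log2 difference 1.47 ± 0.16 SE, adjusted p = 2.93e-05). All 6 genes held with either library.

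Secreted Wnt-binding antagonists were among the pathway members that rose. Of 36 Wnt genes tested, 10 rose and 4 fell (median 0.10), with 5 and 2 called without the library labelled TAC 1 and 10 and 2 without TAC 2. The antagonist gene Frzb was at 6.79, 5.66, 7.88 and 8.84 CPM in sham and 30.9 and 24.9 CPM after TAC (log2 difference 1.93 ± 0.20 SE, adjusted p = 2.45e-05). The related Sfrp1 was at 22.2, 22.9, 26.1 and 23.5 and 50.6 and 46.3 CPM (log2 difference 1.03 ± 0.19 SE, adjusted p = 0.00214), and Sfrp2 at 4.37, 2.76, 4.82 and 3.505 and 12.7 and 24.1 CPM (log2 difference 2.26 ± 0.32 SE, adjusted p = 0.0003). In Sfrp2 TAC 2 was the higher, by nearly 2-fold. Nkd2, an inhibitor inside the cell, rose from 4.14, 2.94, 3.34 and 2.91 CPM to 11.7 and 10.7 CPM (log2 difference 1.76 ± 0.21 SE, adjusted p = 7.48e-05). These 4 held with either library. The receptor gene Fzd1 rose by 1.06 ± 0.17 and Ccn4, a matricellular target of the pathway, by 1.48 ± 0.29 (log2, SE), with adjusted p of 0.0595 and 0.0739 without the library labelled TAC 1 and 8.06e-05 and 0.00841 without TAC 2. The 4 genes called lower, chosen after their values were seen, were the ligand gene Wnt5a, the receptor genes Fzd4 and Fzd5, and Sfrp5, another antagonist (log2 differences -0.65, -0.37, -0.56 and -3.06), and none of these calls held with either library.

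Growth factors that act on tyrosine kinases rose in 8 of 57 and fell in 5 (median 0.09). On leaving out the library labelled TAC 1, 6 were called, all higher, and without TAC 2, 9 rose and 2 fell. Igf1, insulin-like growth factor 1, was at 30.6, 23.2, 24.1 and 22.7 CPM in sham and 74.2 and 43.4 CPM after TAC (log2 difference 1.23 ± 0.19 SE, adjusted p = 0.000661), and the binding protein gene Igfbp7 at 174, 157, 169 and 172 and 410.1 and 289 CPM (log2 difference 1.06 ± 0.13 SE, adjusted p = 0.000116). The library labelled TAC 1 was clearly the higher for both. Egfr, the epidermal growth factor receptor, was at 9.21, 10.8, 8.21 and 8.03 and 16.3 and 17.6 CPM (log2 difference 0.903 ± 0.17 SE, adjusted p = 0.00275). Its ligand Hbegf was at 33.3, 21.7, 30.5 and 27.4 and 77.4 and 44.2 CPM (log2 difference 1.11 ± 0.22 SE, adjusted p = 0.00329; adjusted p = 0.166 without the library labelled TAC 1). Ereg, another ligand of that receptor, was at 0 in 3 sham libraries, 0.0547 CPM in sham 3 and 1.46 and 0.963 CPM after TAC (adjusted p = 0.000122). Igf1, Igfbp7, Egfr and Ereg held with either library.

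In the IL-6 family, 2 of 30 genes were called higher and 3 lower (median 0.02), 1 and 1 without the library labelled TAC 1, and 1 and 3 without TAC 2. Ctf1, the ligand cardiotrophin, fell from 6.79, 7.34, 6.62 and 5.99 CPM to 3.91 and 3.48 CPM (log2 difference -0.85 ± 0.18 SE, adjusted p = 0.00508), held with either library. The calls of Stat5b and Il4ra, given below, were also lost without some sham libraries. For Stat5b the adjusted p in edgeR was 0.0894 without sham 2, 0.0661 without sham 3 and 0.0718 without sham 4. For Il4ra it was 0.0597 without sham 3. Lifr, the receptor subunit that cardiotrophin shares with leukaemia inhibitory factor, fell from 101, 111, 94.3 and 106 CPM to 66.5 and 74.7 CPM (log2 difference -0.55 ± 0.10 SE, adjusted p = 0.00156; adjusted p = 0.0535 without the library labelled TAC 1). Stat5b, a transcription factor of JAK signalling, had a log2 difference of -0.29 ± 0.09 (adjusted p = 0.0405, 0.265 without that library and 0.0893 without TAC 2), and Il4ra, a receptor of interleukin 4, a difference of 0.54 ± 0.14 (adjusted p = 0.0218, 0.132 and 0.0764).

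Signalling by angiotensin, endothelin and catecholamines changed in both directions, with 6 of 37 higher and 7 lower (median -0.05). When the library labelled TAC 1 was left out, the counts were 2 and 1, and without TAC 2 they were 6 and 6. Edn3, an endothelin ligand, was at 4.29, 3.69, 3.34 and 4.098 CPM in sham and 27.1 and 15.3 CPM after TAC (log2 difference 2.46 ± 0.37 SE, adjusted p = 0.000513). Maob, an enzyme that breaks down catecholamines, was at 78.5, 83.2, 77.3 and 74.8 and 43.5 and 47.3 CPM (log2 difference -0.79 ± 0.11 SE, adjusted p = 0.000217). Both genes held with either library. The alpha-1 adrenergic receptor genes Adra1a and Adra1b fell, with log2 differences of -0.91 and -0.95 and adjusted p of 0.00308 and 0.00213, and of 0.099 and 0.0735 without the library labelled TAC 1. Grk5, a kinase that desensitises such receptors, rose by 0.78 ± 0.14 (adjusted p = 0.00238, and 0.0873 without that library).

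Cyclic nucleotide genes were called higher in 4 of 45 and lower in 5 (median -0.06), with 2 and 2 without the library labelled TAC 1 and 4 and 7 without TAC 2. Adcy7, an adenylyl cyclase, was at 19.7, 23.04, 22.6 and 29.4 CPM in sham and 73.4 and 65.6 CPM after TAC (log2 difference 1.55 ± 0.15 SE, adjusted p = 1.01e-05). Ddah1, which breaks down an endogenous inhibitor of nitric oxide synthase, was at 6.56, 7.25, 7.88 and 6.74 and 19.3 and 18.7 CPM (log2 difference 1.42 ± 0.11 SE, adjusted p = 2.11e-06). Pde4d, a phosphodiesterase that degrades cyclic AMP near the calcium release channel, was at 49.2, 50.3, 50.8 and 45.5 and 27.6 and 29.2 CPM (log2 difference -0.79 ± 0.13 SE, adjusted p = 0.00117), and Mme, neprilysin, which degrades natriuretic peptides, at 17.2, 14.6, 17.5 and 16.1 and 8.21 and 8.67 CPM (log2 difference -0.95 ± 0.12 SE, adjusted p = 0.000176). The TAC libraries were close to each other in all 4 genes, and each held with either library.

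Calcineurin, CaMKII and MEF2 genes were called in 8 of 41, 4 in each direction (median -0.03). Without the library labelled TAC 1, the counts were 1 higher and 2 lower, and without TAC 2 they were 1 and 3. Rcan1, an inhibitor of calcineurin that is itself induced by its activity, was at 109, 83.8, 118 and 119 CPM in sham and 521 and 322 CPM after TAC (log2 difference 1.97 ± 0.26 SE, adjusted p = 0.000207). Camk2a, an isoform of the kinase better known from brain, was at 71.6, 85.3, 70.9 and 82.9 and 37.5 and 54.01 CPM (log2 difference -0.76 ± 0.13 SE, adjusted p = 0.00139). Both held with either library.

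Of 28 tubulins and microtubule proteins, 12 rose, 2 fell and 14 did not pass (median 0.24), with 3 and 1 without the library labelled TAC 1 and 10 and 1 without TAC 2. Map1b, a microtubule-associated protein best known from neurons, was at 27.7, 25.01, 22.6 and 23.4 CPM in sham and 41.8 and 47.7 CPM after TAC (log2 difference 0.86 ± 0.15 SE, adjusted p = 0.00156), and Map1a at 12.4, 12.3, 11.4 and 13.1 and 21.6 and 22.4 CPM (log2 difference 0.84 ± 0.14 SE, adjusted p = 0.000945). The TAC libraries were near each other in both and well above sham. Tubb3, a beta-tubulin of neurons, was at 1.33, 1.64, 0.985 and 1.13 and 4.99 and 3.33 CPM (log2 difference 1.699 ± 0.26 SE, adjusted p = 0.000642), and Ttll1, an enzyme that adds glutamate to tubulin tails, fell from 73.1, 78.8, 78.7 and 74.8 CPM to 27.9 and 40.8 CPM (log2 difference -1.15 ± 0.13 SE, adjusted p = 5.87e-05). All 4 held with either library. Tubb2a was at 29.04, 34.9, 30.6 and 33.8 and 79.7 and 56.5 CPM (log2 difference 1.08 ± 0.19 SE, adjusted p = 0.00188; adjusted p = 0.0765 without the library labelled TAC 1), and as tubulin genes resemble each other closely, reads could be shared among them.

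Of 44 genes of actin dynamics and nonmuscle contraction, 13 rose and the other 31 did not pass (median 0.29). With TAC 2 as the only TAC library, 2 were called, and without TAC 2, 15. Myh10, nonmuscle myosin IIB, was at 60.4, 65.2, 61.7 and 63.6 CPM in sham and 100.5 and 88.1 CPM after TAC (log2 difference 0.59 ± 0.08 SE, adjusted p = 0.000153), and Capg, which caps actin filaments in macrophages and other cells, at 16.7, 13.4, 15.4 and 16.6 and 33.8 and 24.7 CPM (log2 difference 0.92 ± 0.14 SE, adjusted p = 0.000758). These were the members that held with either library. Integrin and focal adhesion genes rose in 9 of 38 (median 0.16), in 4 without the library labelled TAC 1 and 8 without TAC 2. Itga11, a collagen-binding integrin of fibroblasts, was at 3.98, 3.37, 3.39 and 4.799 and 6.98 and 13.6 CPM (log2 difference 1.41 ± 0.23 SE, adjusted p = 0.000866), and Itga9 at 76.3, 102, 96.8 and 117 and 268 and 161 CPM (log2 difference 1.13 ± 0.18 SE, adjusted p = 0.000755). The TAC libraries ranked in opposite order for these integrins. Flnc, the filamin of striated muscle, was at 330.4, 456, 414 and 588 and 893 and 859.5 CPM (log2 difference 0.97 ± 0.16 SE, adjusted p = 0.00102). Itgb1, the common integrin beta chain and chosen after its values were seen, was at 638, 568, 661 and 559.7 and 886 and 646 CPM, so TAC 2 lay within the sham range (adjusted p = 0.0444, and 0.724 without the library labelled TAC 1).

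At the intercalated disc, where myocytes join, 5 of 30 genes rose and 5 fell (median 0.03), with 2 and 2 without the library labelled TAC 1 and 6 and 5 without TAC 2. Xirp2, an actin-binding protein of the disc, was among the most abundant genes that changed, at 1535, 1249, 1514 and 1473 CPM in sham and 7846 and 3625 CPM after TAC (log2 difference 1.99 ± 0.23 SE, adjusted p = 6.8e-05). Nrap, a scaffold of new myofibrils, was at 767, 939.9, 876 and 968 and 1558 and 1480 CPM (log2 difference 0.77 ± 0.13 SE, adjusted p = 0.00117). Dsc2, a desmosomal cadherin, fell from 83.5, 76.7, 87.8 and 70.2 CPM to 50.8 and 50.9 CPM (log2 difference -0.64 ± 0.10 SE, adjusted p = 0.000493), and Ank2, the adaptor ankyrin B, from 199, 217, 199 and 211 CPM to 141 and 154 CPM (log2 difference -0.48 ± 0.08 SE, adjusted p = 0.00102). All held with either library, although Xirp2 was more than 2-fold higher in the library labelled TAC 1 than in TAC 2.

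Other abundant genes changed less. Des, the intermediate filament desmin, was at 1607, 1440, 1521 and 1735 CPM in sham and 2779 and 2278 CPM after TAC (log2 difference 0.68 ± 0.10 SE, adjusted p = 0.000542), and Golga4, a golgin, at 1177, 1130, 1155 and 1322 and 1516 and 1691 CPM (log2 difference 0.42 ± 0.08 SE, adjusted p = 0.00382), both held with either library. Casq2, the calcium buffer of the sarcoplasmic reticulum, rose by 0.48 ± 0.12 (log2, SE) and Myom1, an M-band protein, by 0.39 ± 0.10, with adjusted p of 0.329 and 0.239 without the library labelled TAC 1 and, for Myom1, 0.0527 without sham 3. Hspb7, a small heat shock protein of the myocyte, rose by 0.51 ± 0.09 (adjusted p = 0.00246, and 0.0504 without that library). Ryr2, the calcium release channel, was at 1734, 2034, 1950 and 2176 and 1506 and 1361 CPM (log2 difference -0.46 ± 0.13 SE, adjusted p = 0.0254; adjusted p = 0.103 without the library labelled TAC 1, 0.135 without TAC 2 and 0.0515 without sham 2). Sdha, a subunit of respiratory complex II, was at 1549, 1549, 1560 and 1542 and 1181 and 1315 CPM (log2 difference -0.31 ± 0.08 SE, adjusted p = 0.0175; adjusted p = 0.24 without the library labelled TAC 1). For Sdha the sham libraries were almost identical.

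Of 44 potassium channel genes tested, 13 fell, 2 rose and 29 did not pass (median -0.19), 7 and 1 without the library labelled TAC 1 and 12 and 2 without TAC 2. Kcnj3 and Kcnj5, the subunits of the channel opened by acetylcholine, were at 115, 118, 116 and 95.2 and 116, 122, 122 and 98.4 CPM in sham and at 36.8 and 50.97 and 66.3 and 72.3 CPM after TAC (log2 differences -1.34 ± 0.18 and -0.73 ± 0.12 SE, adjusted p = 0.000176 and 0.00101). Kcnd2 and Kcnd3, which carry the fast transient outward current, were at 60.04, 55.3, 60.1 and 43.3 and 23.7, 31.7, 26.6 and 29.4 CPM in sham and at 30.3 and 31.5 and 17.2 and 15.6 CPM after TAC (log2 differences -0.82 ± 0.14 and -0.77 ± 0.12 SE, adjusted p = 0.00117 and 0.000879). No TAC value overlapped a sham value, and these 4 genes held with either library. In the other direction, Kcnj15, an inward rectifier better known from epithelia, rose from 2.42, 2.71, 2.02 and 2.05 CPM to 5.99 and 6.15 CPM (log2 difference 1.395 ± 0.17 SE, adjusted p = 0.000116), held with either library.

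Genes of sodium, chloride, proton and water transport were called higher in 5 of 39 and lower in 8 (median -0.05), 3 and 1 without the library labelled TAC 1 and 5 and 7 without TAC 2. Aqp8, a channel for water and peroxide, was at 8.197, 5.33, 10.1 and 8.14 CPM in sham and 35.4 and 29.6 CPM after TAC (log2 difference 2.04 ± 0.28 SE, adjusted p = 0.00025), in contrast to Aqp4 above. Fxyd5 and Fxyd6, small regulators of the sodium pump, were at 19.6, 17.7, 16.4 and 17.5 and 49.6, 32.3, 43.5 and 34.3 CPM in sham and at 32.8 and 30.1 and 96.3 and 70.3 CPM after TAC. They rose by 0.83 ± 0.14 and 1.06 ± 0.16 (log2, SE) and, like Aqp8, held with either library. Of the genes that fell, Clcn3, a chloride and proton exchanger of vesicles, was at 82.7, 87.3, 87.4 and 73.3 and 61.6 and 59.9 CPM (log2 difference -0.44 ± 0.10 SE, adjusted p = 0.00746; adjusted p = 0.0716 without the library labelled TAC 1). Ano10, an anoctamin, had a log2 difference of -0.76 ± 0.16 (adjusted p = 0.106 without that library).

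Of 32 genes for the breakdown of branched-chain amino acids and for ketone use, 13 fell, 2 rose and 17 did not pass (median -0.30). On leaving out the library labelled TAC 1, 8 were called, all lower, and without TAC 2, 12 fell and 1 rose. Dbt and Bckdhb encode subunits of the dehydrogenase complex that commits these amino acids to breakdown, and Ppm1k the phosphatase that switches the complex on. Ppm1k was at 205, 215, 213 and 153 CPM in sham and 90.6 and 106 CPM after TAC (log2 difference -0.996 ± 0.14 SE, adjusted p = 0.000232), and Dbt at 135, 121, 131 and 119.6 and 76.97 and 79.6 CPM (log2 difference -0.69 ± 0.09 SE, adjusted p = 0.000117). Further down, Ivd, which acts on the leucine branch, was at 449.9, 491, 480.1 and 479 and 297 and 344 CPM (log2 difference -0.57 ± 0.08 SE, adjusted p = 0.000428), and Aldh6a1, on the valine branch, at 320.5, 318, 345 and 319.8 and 203 and 216 CPM (log2 difference -0.63 ± 0.07 SE, adjusted p = 5.77e-05). The TAC values of all 4 stood clear of the sham values, of which sham 4 was low for Ppm1k and sham 3 high for Aldh6a1. Bckdhb and Mccc2, the latter for the carboxylase of the leucine branch, had log2 differences of -0.65 ± 0.09 and -0.62 ± 0.08 (SE). These 6 genes held with either library, as did 2 others of the list. Klf15, a transcription factor known to promote this pathway, was at 57.1, 70.8, 53.03 and 53.1 and 27.5 and 43.2 CPM (log2 difference -0.73 ± 0.18 SE, adjusted p = 0.0137; adjusted p = 0.266 without the library labelled TAC 1). The genes that rose, chosen after their values were seen, were Slc7a5 and Bdh1. Slc7a5, which imports branched-chain amino acids, was at 4.37, 5.14, 6.46 and 7.93 and 10.4 and 11.9 CPM (log2 difference 0.89 ± 0.20 SE, adjusted p = 0.00884; adjusted p = 0.0501 without the library labelled TAC 1 and 0.0603 without TAC 2). Bdh1, a ketone body enzyme, was at 118, 101, 124 and 182 and 299.5 and 179.5 CPM, where TAC 2 lay inside the sham range (adjusted p = 0.0231, and 0.447 without the library labelled TAC 1).

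In glucose uptake and glycolysis, 7 of 42 genes fell and 3 rose, while the median was slightly positive (0.09). When the library labelled TAC 1 was left out, 1 fell and 1 rose, and without TAC 2, 8 fell and 4 rose. Slc2a4, the insulin-responsive transporter, was at 481, 518, 466 and 512 CPM in sham and 344 and 404 CPM after TAC (log2 difference -0.402 ± 0.09 SE, adjusted p = 0.0076; adjusted p = 0.173 without the library labelled TAC 1). The transporter gene Slc2a12 and the hexokinase gene Hk2 fell too, with log2 differences of -0.98 ± 0.20 and -0.37 ± 0.08 (SE) and adjusted p of 0.0873 and 0.117 without that library. Slc16a3, which exports lactate, rose from 1.48, 2.34, 1.59 and 1.89 CPM to 4.45 and 4.82 CPM (log2 difference 1.32 ± 0.21 SE, adjusted p = 0.000845). It held with either library, as did the fall of Pfkfb1 described above.

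Regulators of metabolism around PGC-1 and the PPARs fell in 10 of 46 and rose in 1, Dio2, described above (median -0.21). Without the library labelled TAC 1, 1 fell and 1 rose, and without TAC 2, 10 fell and 2 rose. Dgat2, which completes triglyceride synthesis, was at 485, 426, 449 and 462 CPM in sham and 274 and 292 CPM after TAC (log2 difference -0.69 ± 0.09 SE, adjusted p = 0.000254), held with either library. Thrb, a thyroid hormone receptor, was at 33.02, 31.5, 33.6 and 35.3 and 18.9 and 21.7 CPM (log2 difference -0.72 ± 0.14 SE, adjusted p = 0.00422; adjusted p = 0.0933 without the library labelled TAC 1), the opposite direction to the enzyme Dio2 that supplies its ligand. Of 11 transcripts encoded by mitochondrial DNA, 0 passed in edgeR and 0 in DESeq2, and 1 had an unadjusted p under 0.05 (median 0.12). Phosphocreatine and adenylate genes rose in 2 of 30 and fell in 1 with both TAC libraries, and fewer were called without the library labelled TAC 1. The gene that fell was Prkab1, a subunit of AMP-activated kinase, at 41.2, 40.4, 40.2 and 39.8 and 31.7 and 28 CPM (log2 difference -0.44 ± 0.09 SE, adjusted p = 0.00379).

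The integrated stress response, the programme that follows slowed translation and works through ATF4, had a larger median difference in TAC 2 than in the library labelled TAC 1. Of its 33 genes, 10 rose and 3 fell (median 0.21). With TAC 2 as the only TAC library 8 were called, all higher, and with the library labelled TAC 1 as the only one 3 rose and 2 fell. The median log2 difference from sham was 0.05 in the library labelled TAC 1 and 0.37 in TAC 2. Mthfd2 (ENSMUSG00000005667.8, GRCm38 chromosome 6, 83305691 to 83325908), a mitochondrial folate enzyme, was at 2.65, 3.37, 2.68 and 3.505 CPM in sham and 6.83 and 34.8 CPM after TAC (log2 difference 2.76 ± 0.42 SE, adjusted p = 0.000661). Its call held with either library. Asns, asparagine synthetase, was at 2.89, 3.93, 3.39 and 4.31 and 4.37 and 13.5 CPM (log2 difference 1.29 ± 0.30 SE, adjusted p = 0.0114; adjusted p = 0.562 without TAC 2), so the library labelled TAC 1 stood just above the highest sham library. Atf5 was at 47.9, 48.8, 51.1 and 52.4 and 63.4 and 109 CPM (log2 difference 0.78 ± 0.18 SE, adjusted p = 0.0104; adjusted p = 0.245 without TAC 2), and Phgdh, which opens serine synthesis, at 1.56, 1.64, 1.204 and 0.863 and 2.46 and 4.22 CPM (log2 difference 1.35 ± 0.31 SE, adjusted p = 0.0103; adjusted p = 0.146 without TAC 2).

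Nupr1, a stress-induced chromatin protein, was at 5.54, 5.28, 6.07 and 5.93 CPM in sham and 15.1 and 16.7 CPM after TAC (log2 difference 1.48 ± 0.18 SE, adjusted p = 0.000117), and it held with either library, as did Gdf15 above. Cth, an enzyme that makes cysteine, fell from 6.25, 6.45, 4.71 and 3.23 CPM to 1.07 and 1.85 CPM (log2 difference -1.804 ± 0.31 SE, adjusted p = 0.00146; adjusted p = 0.0517 without the library labelled TAC 1). Atf4 and Atf3, chosen after their values were seen, rose as well. Atf4, the central factor, was at 94.8, 88.3, 93.1 and 93.2 and 123 and 130.5 CPM (log2 difference 0.46 ± 0.11 SE, adjusted p = 0.0154; adjusted p = 0.082 without the library labelled TAC 1 and 0.077 without TAC 2). Atf3, one of its targets, was at 5.31, 5.98, 5.47 and 4.64 and 12.1 and 26.9 CPM, with TAC 2 more than 2-fold above the other (log2 difference 1.86 ± 0.52 SE, adjusted p = 0.0276; adjusted p = 0.264 without TAC 2).

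ATF4 acts with C/EBP partners at a composite element, and the promoters of the stress genes were therefore searched. RefSeq promoters on GRCm38.p6, from 250 bases before to 50 after each start, were found for 9 of the 10 genes that rose, in 12 windows. The letters TGATGCAA, on either strand, stood in 2 of these 12, those of Atf3 and Nupr1, and in 0.557% of the 14181 windows of tested genes. Both are shown because they are the promoters of the group that hold the element, with its letters in capitals (TGATGCAA or, on the other strand, TTGCATCA). In each it begins 110 bases before the start. The window of Atf3 is chr1:191183284-191183583 and that of Nupr1 chr7:126625421-126625720, both on the minus strand.
Atf3: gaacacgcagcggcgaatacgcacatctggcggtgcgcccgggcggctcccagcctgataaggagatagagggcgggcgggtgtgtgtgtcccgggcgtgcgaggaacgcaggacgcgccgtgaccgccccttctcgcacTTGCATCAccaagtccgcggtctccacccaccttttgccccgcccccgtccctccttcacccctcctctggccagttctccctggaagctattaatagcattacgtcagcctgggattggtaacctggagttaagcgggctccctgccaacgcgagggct
Nupr1: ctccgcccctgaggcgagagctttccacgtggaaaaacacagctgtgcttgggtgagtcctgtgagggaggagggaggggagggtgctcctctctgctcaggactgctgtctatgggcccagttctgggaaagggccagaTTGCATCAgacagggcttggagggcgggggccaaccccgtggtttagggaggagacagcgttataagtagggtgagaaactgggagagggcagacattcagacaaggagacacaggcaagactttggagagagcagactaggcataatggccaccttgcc

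Such a match is a description of the sequence, and promoters without these letters may hold variants of the element. In all, 5 kinds of element were searched on both strands, and a window could hold several. The AP-1 letters TGAGTCA stood in 6.04% of the windows of genes called higher and 3.08% of those called lower, against 3.83% over tested genes. The MCAT letters CATTCC stood in 15.2%, 14% and 12.6%, and the E-box letters CACGTG in 9.19%, 7.58% and 9.63%. These shares were not tested.

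**Figure D2:**
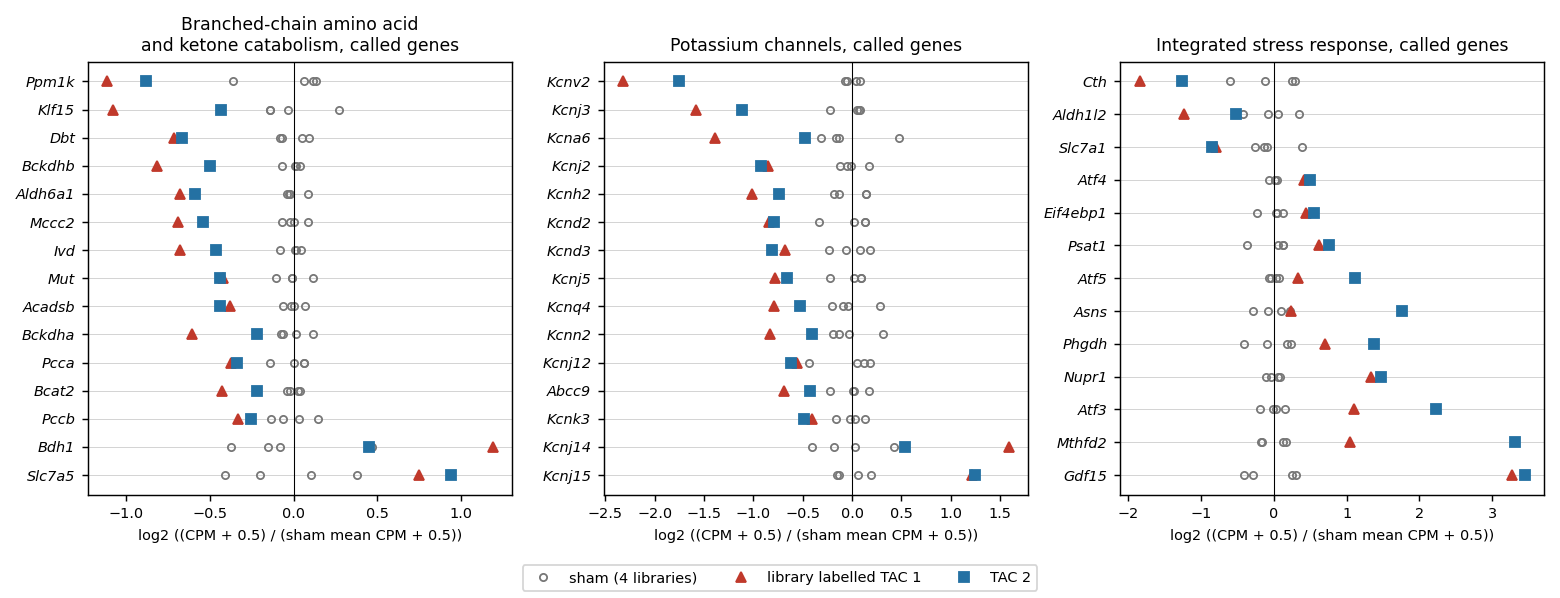
Called genes of branched-chain amino acid and ketone catabolism (left), potassium channels (middle) and the integrated stress response (right). The x axis is each library's CPM against the sham mean on a log2 scale with 0.5 CPM added, with circles for the 4 sham libraries, a triangle for the library labelled TAC 1 and a square for TAC 2. Squares lie farther right than triangles for Mthfd2, Asns, Atf5 and Phgdh, while triangles lie farther left than squares for Bckdhb and Kcnv2.

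Genes of the one-carbon, pentose and hexosamine routes rose in 8 of 35 and fell in 1 (median 0.00). With TAC 2 as the only TAC library, 4 were called, all higher, and without TAC 2, 6 rose and 3 fell. Mthfd2, Asns, Phgdh and Psat1 stand in both this list and the stress response. Aldh18a1, which starts proline synthesis, was at 12.02, 12.3, 12.97 and 12.2 CPM in sham and 20.9 and 20.4 CPM after TAC (log2 difference 0.74 ± 0.11 SE, adjusted p = 0.000569), and held with either library. Pycr1, which completes it, was at 1.17, 1.64, 1.81 and 1.78 and 3.3 and 3.26 CPM (log2 difference 1.02 ± 0.22 SE, adjusted p = 0.00687; adjusted p = 0.0748 without the library labelled TAC 1). Proline is abundant in collagen, and the TAC libraries were nearly equal for these enzymes.

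Genes of the endoplasmic reticulum rose in 6 of 39 and fell in 2 (median 0.07), and 5 and 3 without TAC 2. On leaving out the library labelled TAC 1, 0 were called in edgeR, although 8 higher and 2 lower had an unadjusted p under 0.05. Creb3l2, a transcription factor of secretory load, was at 51.8, 63.3, 55.98 and 59.3 CPM in sham and 87.9 and 83.8 CPM after TAC (log2 difference 0.57 ± 0.11 SE, adjusted p = 0.0031; adjusted p = 0.0561 without the library labelled TAC 1). Herpud1, which helps clear misfolded proteins, was at 238, 264, 218 and 228 and 109 and 166 CPM (log2 difference -0.79 ± 0.16 SE, adjusted p = 0.00364; adjusted p = 0.105 without that library).

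Antioxidant genes changed in both directions, with 8 of 49 higher and 6 lower (median -0.00), 3 and 2 without the library labelled TAC 1 and 7 and 4 without TAC 2. Nox4, an oxidase that makes peroxide, was at 4.22, 1.78, 2.57 and 2.32 CPM in sham and 11.9 and 12.4 CPM after TAC (log2 difference 2.19 ± 0.32 SE, adjusted p = 0.000461). The peroxidase genes Gpx1 and Gpx3 rose by 0.64 ± 0.10 and 0.96 ± 0.16, and Gpx3, the secreted form, was at 143, 144, 141 and 147 and 293 and 265 CPM. Gstt1, a glutathione transferase, fell from 21.2, 18.4, 19.9 and 12.7 CPM to 7.597 and 8.15 CPM (log2 difference -1.19 ± 0.19 SE, adjusted p = 0.000763). These genes held with either library. Gsta4, another transferase, had a log2 difference of -0.37 ± 0.07 and held too.

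Autophagy, lysosome and proteolysis genes rose in 11 of 44 and fell in 3 (median 0.12), 5 and 1 without the library labelled TAC 1 and 13 and 3 without TAC 2. Uchl1, a ubiquitin hydrolase known from neurons, was at 13.2, 10.5, 11.7 and 7.98 CPM in sham and 23.8 and 30.4 CPM after TAC (log2 difference 1.33 ± 0.20 SE, adjusted p = 0.000457). Psmb10, a subunit of the immunoproteasome, was at 50.4, 48.8, 49.6 and 48.4 and 89.6 and 69.9 CPM (log2 difference 0.69 ± 0.10 SE, adjusted p = 0.000378), and the lysosomal protease genes Ctsz and Ctss rose by 0.66 ± 0.10 and 0.75 ± 0.13. Asb14, a substrate receptor of a ubiquitin ligase, fell from 157, 144, 142 and 137 CPM to 84.3 and 104 CPM (log2 difference -0.63 ± 0.10 SE, adjusted p = 0.00101). All of these held with either library.

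Transcription factors of fibroblasts rose in 9 of 43 (median 0.24), 5 without the library labelled TAC 1 and 7 without TAC 2. Meox1, a factor of activated fibroblasts, was at 18.5, 22.5, 22.8 and 25.3 CPM in sham and 90.2 and 82.4 CPM after TAC (log2 difference 1.95 ± 0.17 SE, adjusted p = 3.86e-06), and Egr2, an immediate early factor, at 0.468, 0.608, 0.711 and 0.755 and 2.99 and 2.37 CPM (log2 difference 2.04 ± 0.35 SE, adjusted p = 0.00126). Cardiac factors were called higher in 3 of 40 and lower in 7 (median -0.13). When the library labelled TAC 1 was left out, 2 were called, both higher, and without TAC 2, 4 rose and 4 fell. Vgll3, a partner of TEAD factors, was at 3.98, 5.89, 4.71 and 5.23 and 14.04 and 11.3 CPM (log2 difference 1.34 ± 0.22 SE, adjusted p = 0.000986), and Tbx20, a T-box factor of the myocyte, at 142, 153, 139 and 149.6 and 212 and 192 CPM (log2 difference 0.47 ± 0.08 SE, adjusted p = 0.0013). These 4 factors held with either library. Hopx, a regulator of myocyte maturation, was at 289, 246, 259.8 and 196 and 122 and 185 CPM (log2 difference -0.69 ± 0.16 SE, adjusted p = 0.00863; adjusted p = 0.197 without the library labelled TAC 1).

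For the following lists, counts are given with both TAC libraries only. Without the library labelled TAC 1 fewer members of each list were called, as over all genes. Hypoxia and angiogenesis genes rose in 6 of 45 and fell in 2, axon guidance genes in 4 and 2 of 53 and cholesterol genes in 1 and 3 of 42. Imprinted transcripts rose in 2 of 23 and fell in 2, and long noncoding RNAs rose in 3 of 27 and fell in 3. Within them Thbs1, an inhibitor of vessel growth and activator of latent TGF-beta, was at 11.9, 9.25, 12.4 and 9.97 CPM in sham and 54.4 and 53.05 CPM after TAC (log2 difference 2.31 ± 0.31 SE, adjusted p = 0.000236). Rtn4, the neurite inhibitor Nogo, was at 148, 126, 126 and 113 and 299 and 226 CPM (log2 difference 1.03 ± 0.12 SE, adjusted p = 6.14e-05), and Fdft1, squalene synthase, fell from 46.5, 45.3, 50.7 and 42.1 CPM to 28.7 and 26.7 CPM (log2 difference -0.74 ± 0.12 SE, adjusted p = 0.000845). Chaer1, a noncoding RNA named for its part in cardiac hypertrophy, fell from 2.58, 3.18, 3.17 and 2.696 CPM to 1.23 and 0.889 CPM (log2 difference -1.46 ± 0.26 SE, adjusted p = 0.00157). These 4 genes held with either library. The log2 difference was 1.39 ± 0.27 for Dnm3os and -1.19 ± 0.34 for Mhrt (SE; adjusted p of Mhrt = 0.0343, 0.359 without the library labelled TAC 1, 0.0704 without sham 2 and 0.0708 without sham 4), but both run antisense to coding genes, and as the strand setting of the counting is not known, they cannot be told from them.

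Clock genes were lower in 8 of 20 and higher in 1 (median -0.48), with 2 called without the library labelled TAC 1 and 5 without TAC 2, all lower. Hlf, an output factor that binds the D-box, was at 57.5, 51.6, 47.4 and 40.3 CPM in sham and 14.8 and 15.6 CPM after TAC (log2 difference -1.69 ± 0.25 SE, adjusted p = 0.000506), and Cry2, a repressor of the clock, at 56.8, 68.9, 58.4 and 60.2 and 34.1 and 36.1 CPM (log2 difference -0.798 ± 0.14 SE, adjusted p = 0.00131). Both lay far below sham in both TAC libraries and held with either. Arntl, the core activator, chosen after its values were seen, was at 4.53, 5.796, 6.79 and 9.38 and 18.2 and 23.7 CPM (log2 difference 1.65 ± 0.54 SE, adjusted p = 0.0579), and did not pass. In the knockout libraries Arntl ranged from 4.41 to 24.3 CPM. The time of collection is not given, so TAC and time of day cannot be told apart for these genes and for any that follow them.

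Per3, a clock gene at 98.9, 82.1, 71.6 and 74.8 CPM in sham and 27.6 and 35.6 CPM after TAC (log2 difference -1.37 ± 0.28 SE, adjusted p = 0.00517; adjusted p = 0.105 without the library labelled TAC 1), was the only one of 7 clock genes called lower with a RefSeq promoter window that held the D-box letters TTATGTAA or TTACGTAA. The 7 genes had 8 windows. These letters stood in 0.726% of the windows of tested genes. Per3 held them at 2 places, of which the first begins 205 bases before the start, as shown in capitals for chr4:151044616-151044915 on the minus strand.
Per3: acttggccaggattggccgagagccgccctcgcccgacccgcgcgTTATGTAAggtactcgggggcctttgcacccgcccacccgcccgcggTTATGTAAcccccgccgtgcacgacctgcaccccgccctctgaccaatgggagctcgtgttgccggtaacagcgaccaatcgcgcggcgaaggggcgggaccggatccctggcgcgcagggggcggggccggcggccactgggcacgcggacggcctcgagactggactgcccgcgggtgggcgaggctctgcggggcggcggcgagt

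**Figure D3:**
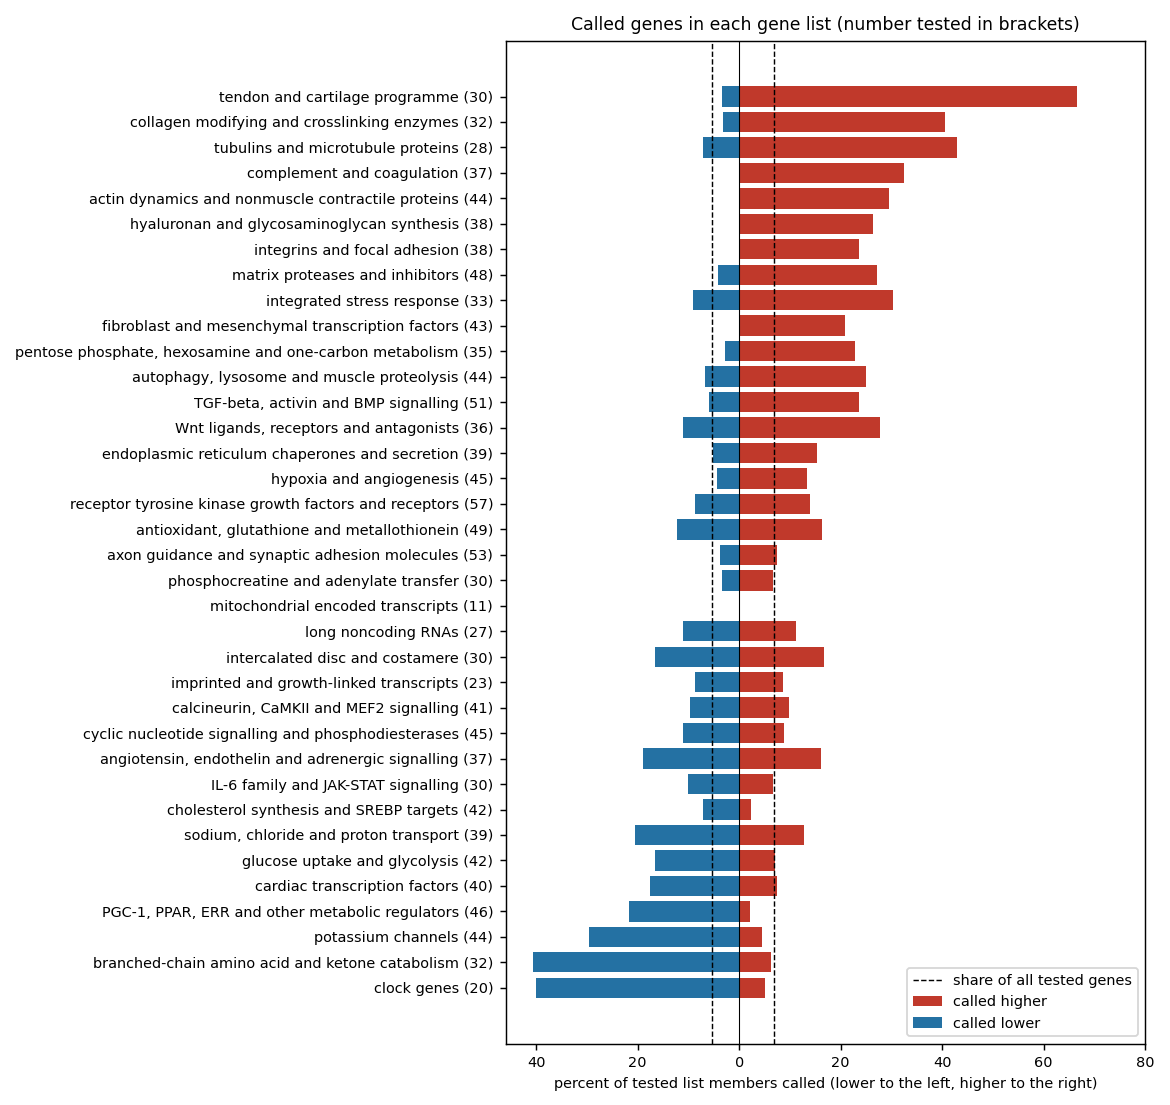
Share of the tested members of each gene list called higher (red, to the right) or lower (blue, to the left) after TAC, with the number tested in brackets. Dashed lines mark the shares over all tested genes, 6.91% higher and 5.3% lower. The list of tendon and cartilage genes, with 20 of 30, reaches farthest to the right. The branched-chain amino acid and clock lists, with 13 of 32 and 8 of 20, reach farthest to the left. The lists were chosen with earlier results of these data known, so their order is a description only.

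Cell type markers were summed to see which cells the RNA came from. The tissue carried the label heart, and the defining atrial genes Myl7, Sln and Bmp10 were too low to be tested. Of 12 atrial markers tested, 4 were called higher and 3 lower. Their list summed to 1491 to 1858 CPM in sham and to 4352 and 3856 CPM after TAC. That sum holds Nppa, also an atrial marker, which rose with load from 103.8 to 217 CPM in sham to 1912 and 1808 CPM. Whether atrial tissue had a part in the sum was not tested. Endothelial markers were called in 0 of 20 by edgeR and 0 by DESeq2, with 1 at an unadjusted p under 0.05, and their sum was 5007 to 5366 CPM in sham and 5034 and 5060 CPM after TAC. Ventricular myocyte markers summed to 61500 to 68355 CPM in sham and to 58905 and 65687 CPM after TAC, with 1 of 18 higher and 2 lower. Fibroblast markers summed to 2764 to 3452 CPM in sham and to 5141 and 4450 CPM after TAC. Of 18 fibroblast markers 8 rose and 1 fell (median 0.45), 7 and 1 without the library labelled TAC 1 and 9 and 1 without TAC 2. Mfap5, a microfibril protein, was at 30.4, 22.9, 28.8 and 27.9 and 145 and 92.2 CPM (log2 difference 2.11 ± 0.17 SE, adjusted p = 1.91e-06), whereas Scara5, a ferritin receptor of resting fibroblasts, fell from 43.02, 52.3, 50.2 and 47.9 CPM to 12.3 and 18 CPM (log2 difference -1.68 ± 0.15 SE, adjusted p = 4.85e-06). Both fibroblast genes held with either library. The fibroblast list itself holds the collagen genes Col1a1, Col1a2 and Col3a1. Their means were 134.5, 209.3 and 364.8 CPM in sham and 404.1, 577.9 and 1065 CPM after TAC. The rise of the sum is therefore in large part a rise of matrix genes and does not measure fibroblast number. The part of fibroblast number in the matrix, TGF-beta and integrin genes above was not tested.

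Macrophage and monocyte markers summed to 456 to 483 CPM in sham and to 706 and 585 CPM after TAC, with 10 of 21 higher (median 0.55). Without the library labelled TAC 1, 2 were called, and without TAC 2, 10. Fcgr1, an antibody receptor of monocytes and macrophages, was at 1.796, 2.62, 2.63 and 2.91 CPM in sham and 6.37 and 5.93 CPM after TAC (log2 difference 1.29 ± 0.22 SE, adjusted p = 0.0013) and was the 1 marker that held with either library. Cx3cr1, the fractalkine receptor of resident macrophages, was at 4.92, 9.54, 7.77 and 6.36 and 20.6 and 14.4 CPM (log2 difference 1.28 ± 0.26 SE, adjusted p = 0.0047; adjusted p = 0.123 without the library labelled TAC 1). Antigen-presenting cell markers were higher in TAC 2, with sums of 346.6 and 416.4 CPM after TAC and 199.4 to 341.1 CPM in sham. Conduction system markers summed to 482.5 CPM in the library labelled TAC 1, 315.7 CPM in TAC 2 and 285.3 to 335.2 CPM in sham. Of 11 tested, 0 were called in edgeR, and both TAC libraries lay above sham for 1 and below sham for 3. The high sum went with Igfbp5, at 255.9 CPM in the library labelled TAC 1 and 102.7 to 135.1 CPM in sham, and Smoc2, at 163.1 CPM and 104.1 to 121 CPM. Hcn4 was at 7.44 CPM in that library and 10.31 to 12.19 CPM in sham. Of the 4 tested T and NK cell markers 1 was called, Ctla4, an inhibitory receptor, at 6.56, 4.91, 5.14 and 6.201 and 1.23 and 2.89 CPM (log2 difference -1.45 ± 0.30 SE, adjusted p = 0.00508; adjusted p = 0.118 without the library labelled TAC 1). The complement genes C1qa and C1qb are members of the macrophage list and so part of its sum. The cathepsin and Capg values above moved with the macrophage sum, whose part in them was not tested.

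Sham 1 stood apart in a small group of genes. The fat cell genes Adipoq and Plin1 stood at 1.64 and 1.72 CPM in it and at no more than 0.109 CPM in the other sham libraries, and Dkk3, Fmod, Comp and Cilp2 were highest in it. Without sham 1, 1066 genes were called higher and 864 lower.

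**Figure D4:**
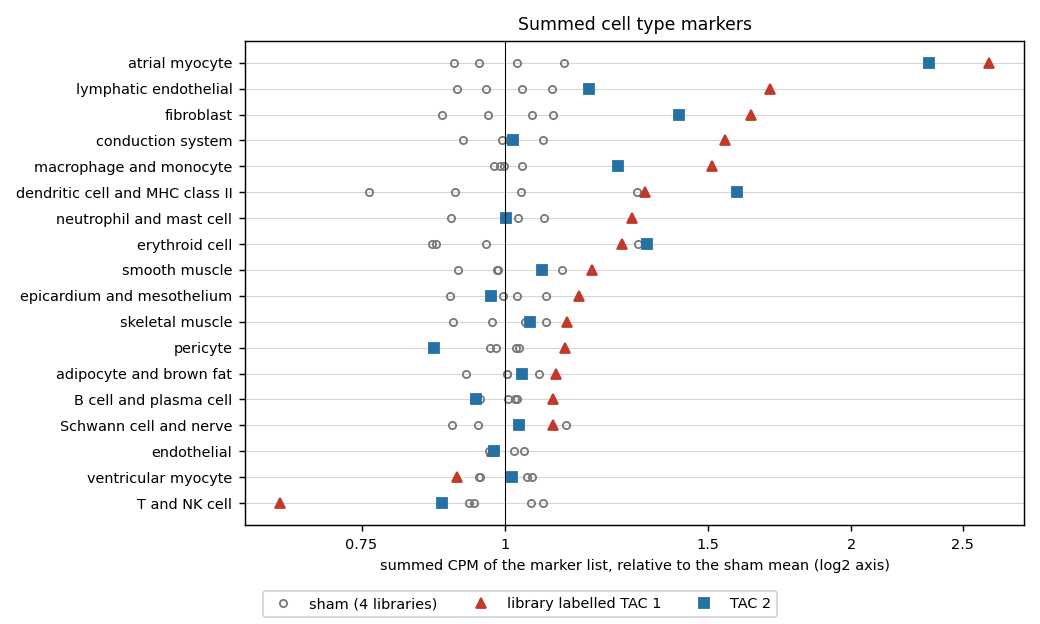
Summed CPM of each cell type marker list in each wild-type library, relative to the sham mean, on a log2 axis. Circles are the 4 sham libraries, triangles the library labelled TAC 1 and squares TAC 2. Fibroblast and macrophage sums lie above all sham libraries in both TAC libraries, and the endothelial sums lie within the sham range, with the triangle under the square.

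Some calls rested on 1 TAC library, although that of Mthfd2, named here for its split values, held with either. Apart from Gm8730 and Gm9625, whose adjusted p was 0.811 and 0.86 without the library labelled TAC 1, the genes with at least 5 CPM whose TAC values differed most were Cilp2, Mthfd2, Frem1, Rhox5, Tbx15 and Gdf6. Frem1, a basement membrane protein, was at 0.781, 0.374, 0.383 and 0.108 CPM in sham and 9.36 and 1.85 CPM after TAC (adjusted p = 0.0546 without the library labelled TAC 1). Tbx15, a T-box factor of the developing skeleton, was at 0.781, 0.514, 1.04 and 1.62 and 11.6 and 2.74 CPM, and Gdf6, a ligand of the BMP class, at 0.937, 1.35, 1.48 and 2.32 and 9.899 and 2.297 CPM (adjusted p = 0.117 and 0.521 without that library). Rhox5, a homeobox gene of the X chromosome, was at 1.72, 5.702, 3.01 and 1.73 and 15.4 and 3.63 CPM (adjusted p = 0.0309, 0.883 without that library, and 0.0639, 0.0653 and 0.0707 without sham 1, 3 and 4). Cilp2 behaved in the opposite way, at 0.703, 0.0935, 0.109 and 0.108 and 0.998 and 9.56 CPM (adjusted p = 0.245 without TAC 2).

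The knockout hearts gave a second comparison of TAC with sham that shares no samples with the first. Both come from the same fit and share its estimate of the spread, so they are not fully separate. The library labelled TAC 1, with its knockout-like Clk3 and pseudogene levels, was counted as wild type. In the knockout comparison 2033 genes were called (13%), 1053 higher and 980 lower. Called the same way in both genotypes were 544 genes higher, 50.3% of the wild-type and 51.7% of the knockout calls, and 421 genes lower, 50.7% and 43.0%. No gene was called in opposite directions. The wild-type calls had a median log2 difference of 0.73 in wild type and 0.42 in knockout among genes called higher, and of -0.65 and -0.37 among those called lower. As the genes were chosen on their wild-type values, a smaller knockout median is given as a description only.

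The TAC effect differed between genotypes in 3 genes (0.0192%). Postn, the matricellular protein periostin, was at 90.95, 55.95, 70.4 and 55.3 CPM in wild-type sham and 879 and 487 CPM after TAC, and at 57.4 to 72.0 CPM in knockout sham and 156.3 to 227 CPM in knockout TAC. Its effect was larger in wild type by 1.87 ± 0.29 on the log2 scale (adjusted p = 0.0403, and 0.289 without the library labelled TAC 1). Ddah1 was larger by 1.04 ± 0.15 (adjusted p = 0.0403, and 0.164 without that library), and was at 7.045 to 8.95 CPM in knockout sham and 9.79 to 10.9 CPM in knockout TAC. Ppm1e, a protein phosphatase chosen for mention after its values were seen, was larger by 1.141 ± 0.17 (adjusted p = 0.0403, 0.112 without that library and 0.0509 without TAC 2). All 3 calls were lost on leaving out sham 2, sham 3 or sham 4, and 1 gene passed without sham 1. The library labelled TAC 1 is the one with knockout-like Clk3 and pseudogene levels, and for Postn its value was the highest of all libraries.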

How the data were processed

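RNA from hearts was sequenced, and the authors deposited 1 table of read counts per gene and sample, with gene parts beside the total, per the file headers. STAR 2.4.2a, Picard 2.10.3, bcl2fastq 2.17.1.14 and the mm10 (GRCm38) genome are named, per the submitters' processing notes. For the counting step, the version, annotation and strand setting were not given in the sources used here. The labels describe a strand-specific library kit. Of 51912 gene identifiers, 51633 were found in GENCODE M21, which gave symbols and positions (GRCm38), 47648 of them with the same version.

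Rows for reads without a feature or with several entered neither library sizes nor tests. Samples were grouped by the labelled genotype and surgery. Counts were scaled by TMM, filtered at a minimum count of 10 (15651 genes tested, 36261 not) and fitted with edgeR 4.0.16 (R 4.3.3), the quasi-likelihood test with 1 coefficient for each of the 4 groups and all 14 libraries, so that the spread was pooled (coefficient of variation between replicates 11.8%). Adjusted p-values follow Benjamini and Hochberg over all tested genes, with a threshold of 0.05. Differences of single libraries from the sham mean are log2 values with 0.5 CPM added. The code was tested on simulated data.

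The comparison and the 56 gene lists (1776 entries, of which 1772 had a row) were chosen with earlier results of these data known. Genes were named by a rule: the 14 largest rises and falls among called genes with a symbol, at least 5 CPM in the higher and 0.5 CPM in the lower group and both TAC libraries outside the sham range, up to 6 of the smallest p in each list, the 8 most abundant called genes and the 8 whose TAC libraries differed most. Of the genes under this rule, 3 are not reported here. Replicate numbers follow the order of deposit. Alternatives were RLE scaling, no count filter, wild-type samples only, 10-week samples only, age as a covariate, counts in coding parts only, DESeq2 1.42.0 and leaving out each of the 6 libraries. Promoter sequences are those of RefSeq.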

Additional observations from a re-analysis of the deposited data

Results flagged for a closer look

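In 17 of 340 sets of 4 sham values for named genes, 1 library stood farther from the rest than a Dixon test at the 95% level allows, and chance flags about 1 in 20 groups. Sham 1 was high for Fmod at 5.62 CPM (others 0.234 to 0.766), Col8a2 at 1.95 CPM (0.608 to 0.701), Dkk3 at 12.8 CPM (2.38 to 4.10), Adipoq at 1.64 CPM and Plin1 at 1.72 CPM (both 0 to 0.109) and Cilp2 at 0.703 CPM (0.0935 to 0.109). Sham 3 was high for Aldh6a1, at 345.3 CPM against 317.5 to 320.5 CPM, and Ereg, at 0.0547 CPM against 0. Sham 4 was low for Mef2a at 225.1 CPM (others 291.8 to 294.9), Kcnj3 at 95.2 CPM (115.3 to 117.7), Psat1 at 3.18 CPM (4.45 to 4.67) and Ppm1k at 152.9 CPM (204.9 to 215.4). It was high for Pcolce at 70.3 CPM (56.8 to 59.1), Ctsz at 40.4 CPM (34.7 to 35.6), Myot at 105.8 CPM (65.3 to 70.2), Col1a2 at 227.8 CPM (201 to 204.4) and the alpha-globin gene Hba-a1 at 117.8 CPM (68.1 to 76.4), a gene with a near-identical copy.

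The TAC effect was larger in wild-type than in knockout hearts by 1.87 for Postn and by 1.04 for Ddah1 on the log2 scale, by the interaction term of the edgeR fit (adjusted p = 0.0403 for both). Without the library labelled TAC 1 the adjusted p was 0.289 and 0.164.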

How the results depend on the processing

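The main counts were 1082 genes higher, 830 lower, 1885 called with both TAC libraries outside the sham range, 579 at least 2-fold and 3 with a TAC effect that differed between genotypes. With wild-type samples only, 618 were higher, 456 lower and 1071 outside the sham range. With 10-week samples only, which left 2 sham libraries, the numbers were 508, 430 and 937, with 373 at least 2-fold. With age as a covariate they were 650, 508 and 1151. With coding counts only they were 690, 479 and 1155, with 374 at least 2-fold. The effect differed between genotypes in 0 genes in edgeR with 10-week samples only, with age as a covariate and with coding counts, in 66 without the count filter and in 37 with DESeq2. Leaving out 1 library gave 321 to 1193 higher, 191 to 1031 lower, 512 to 2224 outside the sham range (trivially so with 1 TAC library), 221 to 856 at least 2-fold and 0 to 32 that differed between genotypes. The lowest of the first 4 ranges came without the library labelled TAC 1 and the highest of all without TAC 2. RLE scaling gave 1079 higher and 829 lower, and DESeq2 1157 and 950. Among named genes, 45 calls were lost with age as a covariate and 59 with 10-week samples only. A call said to hold with either library is therefore not shown to hold in these settings. The direction reversed for Gm9625 alone among named genes, to -0.27 (adjusted p = 0.86) without the library labelled TAC 1, the lowest of its values on leaving out 1 library, of which the highest was 4.805. The cause of these shifts was not tested. No paired analysis was possible because the labels give no replicate numbers. With 2 TAC libraries, a gene that did not pass is not shown to be unchanged.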
